A study of Mus musculus with 6 samples.

Results

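Interferon-stimulated genes were followed in the retinal pigment epithelium and choroid (RPE-choroid) of mice with and without subretinal fibrosis (SRF), a scar under the retina. The group was a list of 43 genes chosen by name for their known response to interferon, and all 43 were among the 15663 genes listed in the deposited tables. The 41 that passed the filter on low counts showed no difference between SRF and control mice past the test. The reported test, by edgeR, called 0.0% of all 13454 tested genes. DESeq2, the tool of the study, called 1.14% of them and 0 of the 41. The median log2 fold change of the 41 was 0.04. SRF mouse 1 had the highest value of the SRF group in 25 of the 41 genes (61.0%), against 35.8% of all tested genes.

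RNA was sequenced in bulk from the RPE-choroid of 3 control and 3 SRF mice, 1 library each. The labels give the strain as C57BL/6 for both groups, and the study's methods describe male C57BL/6J mice 8 to 10 weeks old. Control mice were untreated. SRF mice had 4 laser burns in each eye each burned again after 10 days, and the tissue was collected a further 20 days on. No mouse carried a transgene or a deletion in the labels. The tissue was the whole RPE-choroid, so a lesion was sampled together with the tissue around it. Whether a library held tissue of 1 eye or of both, and whether the control mice were anaesthetised, is not given in the sources used here.

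Interferons are secreted proteins, and cells release those of type I and type III when they sense viral or misplaced nucleic acid. Type I and type III interferons act through JAK kinases on a complex that holds STAT2 and IRF9 and binds a DNA element called the interferon-stimulated response element (ISRE). Genes that answer interferon gamma are known for another element, the gamma-activated sequence (GAS). The genes switched on in this way block viral entry, copying and translation, sense nucleic acid, attack vacuoles that hold microbes and also slow the response itself, and many of them have a low level in resting tissue.

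The response elements of the group are shown first, because they are the sequence feature that interferon-stimulated genes are known for and the list did not use them. RefSeq promoter windows on GRCm38.p6, from 250 bases before to 50 bases after each gene start, were matched to 33 of the 43 genes. An ISRE core, searched as GAAA, any 2 bases and GAAA, or the same read from the other strand (TTTC, any 2 bases and TTTC), was found in 19 of the 33 genes (57.6%), against 3.99% of all 27025 genes with a window. A GAS core, searched as TTC, any 3 bases and GAA, which reads the same on both strands, was found in 10 (30.3%), against 9.55% of all genes. Of the 33 genes, 9 had at least 2 ISRE cores, 6 had both elements and 10 had neither. Stretches around the cores are given below from 5′ to 3′ on the strand of the gene, with the cores in capitals. Overlapping cores run together. A match describes the letters in the window and does not show that a factor was bound there.
Isg15, ISRE, chr4:156200860-156200911, minus strand: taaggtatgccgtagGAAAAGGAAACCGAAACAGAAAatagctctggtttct
Ifit1, ISRE, chr19:34640770-34640828, plus strand: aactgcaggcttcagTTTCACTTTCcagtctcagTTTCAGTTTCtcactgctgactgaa
Ifit3, ISRE, chr19:34583358-34583431, plus strand: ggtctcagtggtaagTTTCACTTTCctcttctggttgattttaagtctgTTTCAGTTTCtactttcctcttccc
Ifit3b, ISRE, chr19:34607754-34607827, plus strand: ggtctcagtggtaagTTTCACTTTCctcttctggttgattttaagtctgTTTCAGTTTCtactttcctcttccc
Oas1a, ISRE, chr5:120907526-120907560, minus strand: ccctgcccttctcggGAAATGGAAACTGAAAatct
Bst2, ISRE, chr8:71537572-71537617, minus strand: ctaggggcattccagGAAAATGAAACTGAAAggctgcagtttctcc
Igtp, ISRE, chr11:58199507-58199546, plus strand: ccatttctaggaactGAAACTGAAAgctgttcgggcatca
Irf1, GAS, chr11:53769909-53769947, plus strand: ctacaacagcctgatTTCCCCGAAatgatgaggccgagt
Samhd1, GAS, chr2:157135308-157135346, minus strand: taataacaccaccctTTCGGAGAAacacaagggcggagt

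Isg15 held 3 overlapping ISRE cores, the most of any gene of the group in 1 printed stretch. Ifit3 and Ifit3b had the same 74 letters with 2 cores each, 32 bases nearer to the start in Ifit3. In Oas1a the last of the 2 overlapping cores began 14 bases before the start. Irf1 and Samhd1 had a GAS core and no ISRE core in these windows. The plot of motif positions shows all matches of the group.

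**Figure D1:**
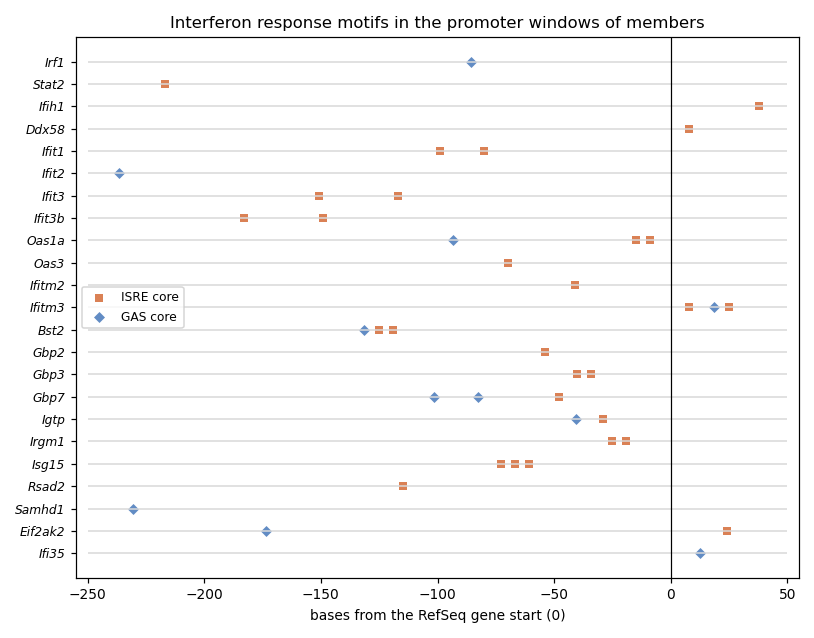
ISRE cores (orange squares) and GAS cores (blue diamonds) in the promoter windows of the genes of the group with a match, in bases from the RefSeq gene start at 0. Most cores lie before the start, and those of Isg15, Oas1a, Bst2, Gbp3 and Irgm1 lie next to each other.

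Totals per library were 13667310 to 24356023 counts. Control mouse 1 and SRF mouse 3 stood apart: 10 rod photoreceptor genes summed to 12089 and 11598 CPM in them, and to 616 to 1583 CPM in the other 4. CPM stands for a gene's counts scaled to the size of its library. RNA of the neighbouring retina was thus unequal within each group. For some genes, results are also given for those 4 libraries. Of the tissue's own genes, 10 RPE markers summed to 46759 to 54984 CPM in control and 32392 to 42115 in SRF mice. Most of that difference was Rgr, with a mean of 25330 CPM in control and 15691 in SRF mice. Of the 10, 7 had a log2 fold change below 0 and 3 above. At an unadjusted p under 0.05 by edgeR 4 were lower, as were 2.85% of all tested genes. The 8 endothelial markers summed to 1071 to 1204 CPM in control and 1004 to 1220 in SRF mice. Fibroblast markers summed to 4315 to 10072 and 6626 to 11036 CPM. In bulk tissue, fewer cells of a type and less RNA per cell cannot be told apart.

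The level of the genes in this tissue was compared per transcript length, in FPKM as the mean of all 6 libraries. The group spanned 0.25 (Oas3) to 695 (Ifitm2), with a median of 8.74 against 7.22 for all listed genes. Above 100 FPKM stood 4 genes, namely Ifitm2 and Ifitm3 (468), which hinder the fusion of viruses with the cell membrane, Bst2 (121), which codes for tetherin and holds budding virus at the cell surface, and Ifit3 (116), which takes part in binding foreign RNA. A further 16 genes lay between 10 and 100 FPKM and 19 between 1 and 10. Mx2 (0.84), Oas2 (0.66), Mx1 (0.54) and Oas3 (0.25) were under 1 FPKM. Both Mx genes are known to be defective in C57BL/6 and most other laboratory strains, and the annotation lists Mx2 as a polymorphic pseudogene. In Ifitm2 the FPKM was 550, 720 and 802 in control mice 1 to 3 and 723, 741 and 637 in SRF mice 1 to 3, so the groups overlapped at the top of the order. Bst2 and Ifit3 changed places between libraries: Bst2 was the higher in control mice 1 and 2 and in SRF mice 1 and 2, and Ifit3 in the third mouse of each group.

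For the comparison of SRF with control mice, every gene with more than 50 counts in at least 2 libraries was fitted with edgeR's quasi-likelihood test. Of the 13454 genes tested, 0.0% were called, which took an adjusted p under 0.05 and a change of 0.5 or more on the log2 scale, and 0 of the 41 interferon-stimulated genes were. Their smallest adjusted p by edgeR with Benjamini-Hochberg adjustment was 0.785. At an unadjusted p under 0.05 there were also 0 of the 41, where 7.01% of all tested genes passed, 4.16% higher and 2.85% lower in SRF. DESeq2, the tool of the study, called 1.14% of the tested genes and 0 of the 41, and had 0 of the 41 at an unadjusted p under 0.05 (7.23% of all). Oas3 and Mx1 did not pass the filter. Oas3 had 21, 17 and 45 counts in the control mice and 15, 20 and 15 in the SRF mice, and Mx1 had 14, 15 and 30 and then 28, 34 and 21. In both the groups overlapped, and a difference was not detectable at this depth.

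A fold change could be bounded for most of the group. The 95% interval of the log2 fold change lay within 0.5 of 0 for 19 of the 41 genes (32.3% of all tested genes) and within 1 of 0 for 35 (79.0% of all). Its upper bound was under 1 in 38. The other 3 were Oas1a (1.06), Oasl1 (1.15) and Mx2 (1.39), of which Oasl1 and Mx2 are among the genes with the fewest counts. Point estimates ran from -0.27 (Ifitm1) to 0.45 (Oas1a), with 26 above 0 and 15 below, and 50.3% of all tested genes were above 0. The groups did not overlap in 2 of the 41 genes, against 13.1% of all tested genes. Both were higher in SRF, as were 6.71% of all tested genes, and 0 were lower, against 6.43% of all. Neither count was above the share of all tested genes.

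**Figure D2:**
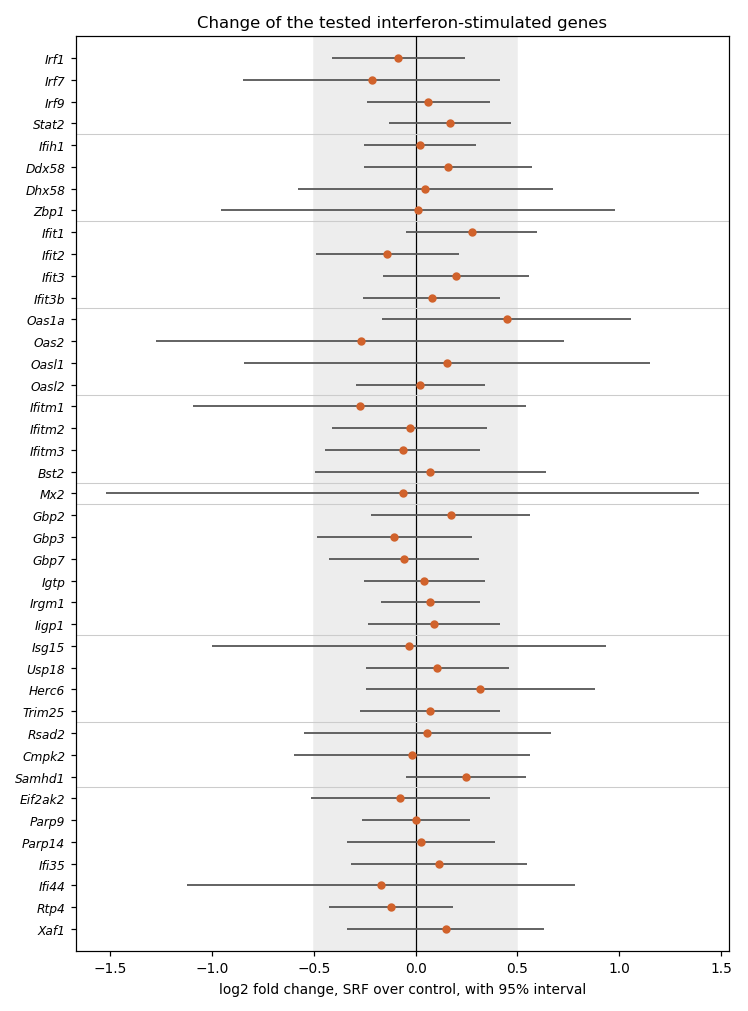
Log2 fold change of SRF over control (points) with its 95% interval (lines) for the 41 tested genes, grouped by role and fitted with edgeR over 3 mice a group; the grey band marks changes within 0.5 of 0. Every interval includes 0, and the widest belong to genes with few counts, such as Mx2 and Oas2.

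The transcription factors of the pathway gave 4 estimates between -0.22 and 0.17. Stat2, which carries the activation domain of the ISRE-binding complex, had 34.7, 31.5 and 30.1 CPM in control and 39.4, 36.5 and 32.3 CPM in SRF mice, a log2 fold change of 0.17 ± 0.13 (SE, n = 3 mice a group). SRF mouse 3 lay within the control range. In the 4 libraries with little rod RNA the log2 fold change of Stat2 was 0.30, at an unadjusted p of 0.064 by edgeR. Irf9, its DNA-binding partner, differed by 0.06 and Irf1, the factor induced early by interferon gamma, by -0.09, and both intervals lay within 0.5 of 0. Irf7, which amplifies type I interferon production, had 29.1, 15.5 and 15.7 CPM in control and 18.5, 17.2 and 16.0 in SRF mice. Control mouse 1 was 1.88 times the lowest library, and the log2 fold change was -0.22 with it and 0.15 without it. In the 4 libraries with little rod RNA it was 0.19.

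The sensors of nucleic acid gave 4 estimates between 0.01 and 0.16. Ddx58, which codes for the RNA sensor RIG-I, had 21.5, 22.0 and 31.3 CPM in control and 26.2, 28.3 and 29.2 in SRF mice. Control mouse 3 was the highest of all 6, and the log2 fold change was 0.16 ± 0.17 (SE). Without control mouse 3 it was 0.36, at an unadjusted p of 0.041 and an adjusted p of 0.718 by edgeR with Benjamini-Hochberg adjustment. In the 4 libraries with little rod RNA it was 0.02. Ifih1, which codes for MDA5, a sensor of long double-stranded RNA, was among the steadiest genes of the group, from 24.6 to 28.1 CPM over the 6 libraries, and its interval was -0.25 to 0.30. Dhx58, a regulator of both sensors, and Zbp1, a sensor of left-handed nucleic acid that can start cell death, were at 7.28 CPM or less in every library and had intervals wider than 0.5 on either side.

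The IFIT genes code for proteins that bind foreign RNA and block its translation. Those of the group lie close together on chromosome 19 (GRCm38), from the start of Ifit2 at 34550694 to the end of Ifit1 at 34650009. Ifit1 (ENSMUSG00000034459) had the smallest unadjusted p of the group. It stood at 32.5, 30.4 and 29.8 CPM in control and 41.8, 31.6 and 38.7 CPM in SRF mice. SRF mice 1 and 3 were above every control mouse and SRF mouse 2 was within their range. The log2 fold change was 0.28 ± 0.14 (SE), with a 95% interval of -0.05 to 0.60, an unadjusted p of 0.083 and an adjusted p of 0.785 by edgeR with Benjamini-Hochberg adjustment. Without SRF mouse 2 it was 0.38 at an unadjusted p of 0.028, and was not called. Ifit3 showed the same order of SRF mice, with 196, 182 and 188 CPM in control and 252, 175 and 222 in SRF mice. Its neighbour Ifit3b had 72.4, 74.4 and 80.3 CPM and then 88.6, 65.4 and 85.8. In both, SRF mouse 2 was the lowest of the 6 libraries and SRF mouse 1 the highest. The log2 fold changes were 0.20 ± 0.15 and 0.08 ± 0.14 (SE).

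Reads of Ifit3 and Ifit3b may not always be told apart, since 51.2% of the 50-base stretches of Ifit3 transcripts also occur in Ifit3b. The study's methods give no read length, so how many reads this touched is not known. With both counted together the log2 fold change was 0.16 ± 0.15 (SE). Ifit2 had an estimate below 0, with 32.2, 31.7 and 34.4 CPM in control and 27.1, 26.5 and 35.8 in SRF mice. SRF mice 1 and 2 were below the controls and SRF mouse 3 above them. Its log2 fold change was -0.14 ± 0.15 (SE), and -0.31 in the 4 libraries with little rod RNA, at an unadjusted p of 0.063.

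The OAS genes code for enzymes that make 2′-5′-linked adenylate, the signal for RNase L to cut RNA, and for their relatives. Oas1a (ENSMUSG00000052776; chromosome 5, 120896256 to 120907521, minus strand) had the largest estimate of the group and was 1 of the 2 genes without overlap. It had 3.87, 4.99 and 6.26 CPM in control and 6.49, 6.91 and 7.28 CPM in SRF mice. The gap between the highest control and the lowest SRF mouse was small against the spread of the control mice. The log2 fold change was 0.45 ± 0.26 (SE), with an interval of -0.16 to 1.06, an unadjusted p of 0.127 and an adjusted p of 0.853 by edgeR with Benjamini-Hochberg adjustment. In the 4 libraries with little rod RNA the log2 fold change was 0.24, at an unadjusted p of 0.411 by edgeR. Of the 50-base stretches of Oas1a, 57.6% are shared with Oas1g and Oas1b. Oas1g had 1.86, 2.44 and 1.75 CPM in control and 2.60, 0.947 and 1.18 in SRF mice, lower in SRF mice 2 and 3 than in any control mouse.

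Counted together, Oas1a, Oas1g and Oas1b stood at 8.42, 10.0 and 10.2 CPM in control and 12.1, 9.94 and 9.96 in SRF mice, so the groups overlapped. The log2 fold change of the sum was 0.16 ± 0.19 (SE), with an unadjusted p of 0.431 by edgeR. Oasl2, the most abundant gene of the family, was steady at 30.0 to 38.0 CPM with an interval of -0.29 to 0.34. Oas2 and Oasl1 were at 4.22 CPM or less in every library, and their intervals reached past 0.5 on either side.

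The genes for proteins that act at membranes included the most abundant of the group, and their levels varied between mice. Ifitm1 had 35.4, 68.6 and 89.2 CPM in control and 67.4, 52.6 and 39.9 in SRF mice. The highest and the lowest library were both control mice, 2.52 times apart, and both libraries rich in rod RNA were the lowest of their group. Its log2 fold change was -0.27 ± 0.34 (SE), 0.03 without control mouse 3 and -0.40 in the 4 libraries with little rod RNA, at an unadjusted p of 0.049. Ifitm2 had 367, 483 and 534 CPM and then 468, 474 and 414, again with control mouse 1 the lowest of its group and SRF mouse 3 of the other. A share of 48.5% of its 50-base stretches occurs in other annotated genes. With Gm45717, which overlaps Ifitm2 on the same strand, 36.1% were shared. Ifitm3 differed by -0.06.

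Bst2 had 107, 92.3 and 80.8 CPM in control and 125, 104 and 65.7 in SRF mice. SRF mouse 3 was the lowest library and SRF mouse 1 the highest. Over all 6 the log2 fold change was 0.07 ± 0.24 (SE). In the 4 libraries with little rod RNA it was 0.40 with an unadjusted p of 0.023 and an adjusted p of 0.224 by edgeR with Benjamini-Hochberg adjustment. In that fit, 17.6% of all tested genes and 3 of the 41 were at an unadjusted p under 0.05. The other 2 were Ifitm1 and Xaf1, a gene linked to cell death, at 0.43 with an adjusted p of 0.207. With all 6 libraries and the photoreceptor level as a covariate, the log2 fold changes of Bst2, Ifitm1 and Xaf1 were 0.02, -0.27 and 0.12, and 0 of the 41 genes were at an unadjusted p under 0.05.

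Among the guanylate-binding proteins and immunity-related GTPases, which interferon gamma induces to attack vacuoles that hold microbes, 5 of 6 intervals lay within 0.5 of 0. The exception was Gbp2, with 29.5, 30.2 and 36.5 CPM in control and 29.4, 37.7 and 41.3 in SRF mice. SRF mouse 1 was the lowest library, and the log2 fold change was 0.17 ± 0.17 (SE). Irgm1, which also guides autophagy, was at 71.1 to 82.6 CPM over the 6 libraries, with an interval of -0.17 to 0.32. Iigp1 and Igtp differed by 0.09 and 0.04, and Gbp3 and Gbp7 by -0.10 and -0.06. Mx2, the 1 tested gene of the Mx family of antiviral GTPases, ran from 0.918 to 3.36 CPM, both in control mice, and its interval of -1.52 to 1.39 set no useful bound.

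Isg15 codes for a ubiquitin-like protein that is coupled to other proteins, and had the 3 overlapping ISRE cores shown above. It had 7.44, 6.89 and 4.38 CPM in control and 8.27, 6.85 and 3.14 CPM in SRF mice. The libraries spread 2.64 times within the SRF group and the groups overlapped throughout, with a log2 fold change of -0.03 ± 0.41 (SE). In the 4 libraries with little rod RNA it was 0.43, at an unadjusted p of 0.205. Herc6, the ligase that attaches ISG15 in mice, had 10.4, 8.08 and 14.2 CPM and then 12.3, 14.3 and 14.3. Control mouse 3 was level with the SRF mice, and the log2 fold change was 0.32 ± 0.24 (SE), or 0.56 without control mouse 3 at an unadjusted p of 0.044 and an adjusted p of 0.733 by edgeR. Usp18, which removes ISG15 and damps the receptor, differed by 0.11 and Trim25, the ubiquitin ligase of RIG-I, by 0.07.

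Of the enzymes that act on nucleotides, Samhd1 (ENSMUSG00000027639; chromosome 2, 157097533 to 157135265, minus strand), which breaks down deoxynucleotides, was the other gene without overlap. It had 41.2, 49.8 and 44.6 CPM in control and 52.8, 58.1 and 50.1 CPM in SRF mice. The lowest SRF mouse was just above the highest control mouse. The log2 fold change was 0.25 ± 0.12 (SE), with an interval of -0.05 to 0.54, an unadjusted p of 0.088 and an adjusted p of 0.790 by edgeR with Benjamini-Hochberg adjustment. With each mouse left out in turn it stayed between 0.19 and 0.32, and it was 0.23 in the 4 libraries with little rod RNA. Rsad2, which codes for viperin, differed by 0.06 and Cmpk2, its neighbour in function, by -0.02, each with intervals past 0.5 on either side.

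The remaining effectors had a median log2 fold change of 0.00. Parp9 was the steadiest gene of the group, whose highest library was 1.10 times its lowest, with an interval of -0.26 to 0.26. Rtp4, an interferon-induced chaperone, had 47.5, 40.2 and 40.5 CPM in control and 43.4, 36.5 and 37.9 in SRF mice. The groups overlapped and the log2 fold change was -0.12 ± 0.13 (SE). Eif2ak2, which codes for the double-stranded RNA kinase PKR, differed by -0.07, Parp14 by 0.03 and Ifi35 by 0.11. Ifi44 ran from 2.39 to 6.43 CPM, both in SRF mice, and its interval reached from -1.12 to 0.78.

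**Figure D3:**
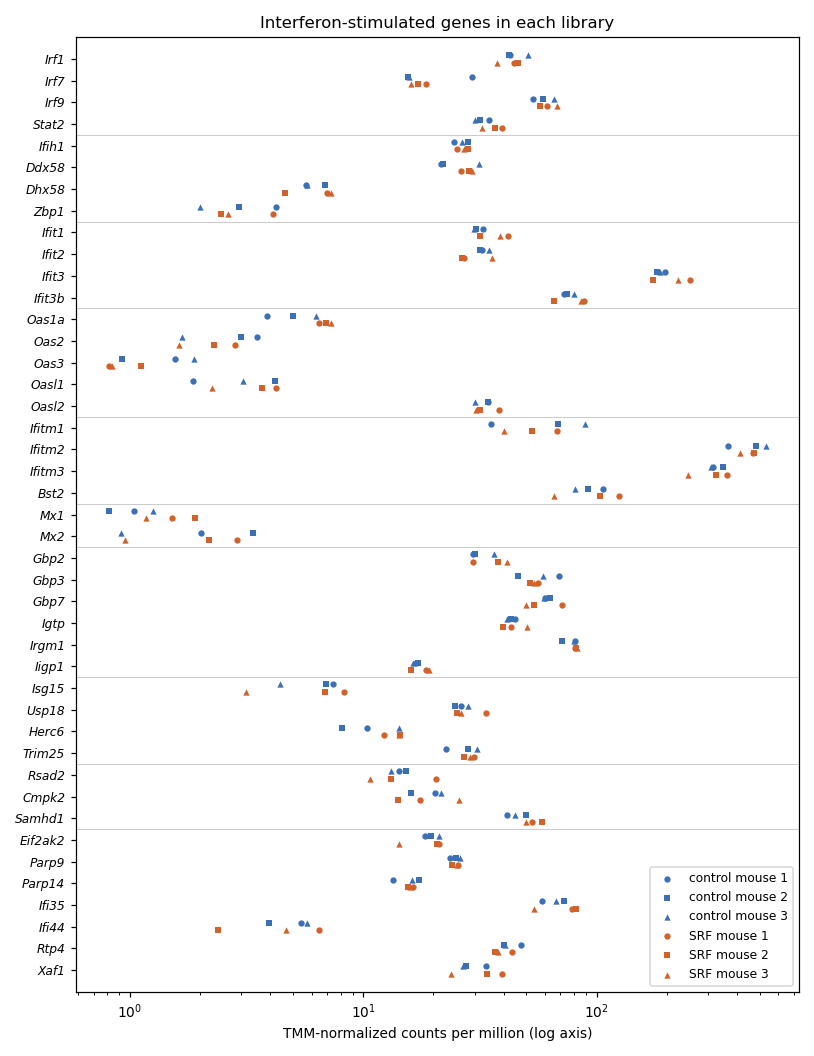
TMM-normalized CPM (log axis) of all 43 genes in each of the 6 libraries, control mice in blue and SRF mice in orange, with the mouse number as the shape and roles divided by lines. The colors mix in nearly every row, and only Samhd1 and Oas1a have all SRF mice to the right of all control mice.

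The mice of a group were ranked for each tested gene. SRF mouse 1 was the highest of the SRF mice in 25 of 41 genes (61.0%), against 35.8% of all tested genes. SRF mouse 2 was the highest in 6 (14.6%) and SRF mouse 3 in 10 (24.4%), against 24.0% and 40.2% of all. The control mice shared the first place more evenly, with 14, 11 and 16 genes. Of all 6 libraries, SRF mouse 1 was the highest in 15 of 41 genes (36.6%, against 19.5% of all tested) and the lowest in 1. The genes it led included Ifit1, Ifit3, Ifit3b, Bst2, Isg15, Usp18, Rsad2 and Xaf1.

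The summed level showed the same animal on top. All 43 genes summed to 2066, 2196 and 2272 CPM in control and 2418, 2179 and 2044 CPM in SRF mice, or 2178 ± 104 and 2214 ± 190 (SD, n = 3). SRF mice 2 and 3 lay below the control mean or level with it. Without the abundant IFITM genes the sums were 1348, 1296 and 1339 CPM and then 1521, 1326 and 1344. SRF mouse 1 had the lowest rod marker sum (616 CPM) and the highest endothelial marker sum (1220 CPM) of the 6 libraries and the highest RPE marker sum of the SRF mice (42115 CPM), and their part in its position was not tested. Without SRF mouse 1 the median log2 fold change of the group was -0.02.

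**Figure D4:**
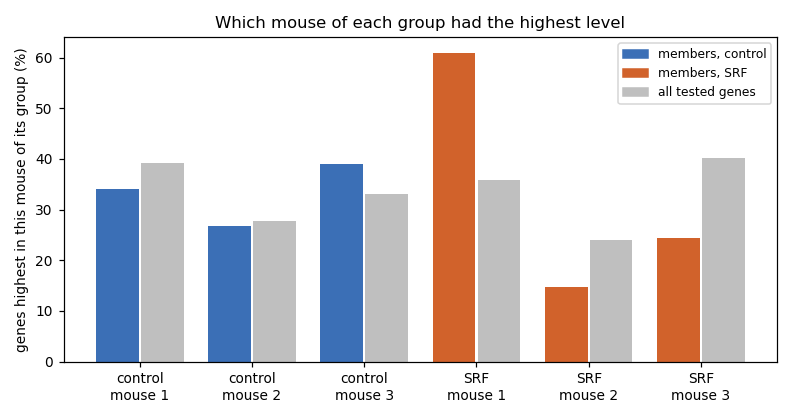
Share of genes (%) for which each mouse had the highest CPM of its own group, for the 41 tested interferon-stimulated genes (blue for control, orange for SRF) and for all 13454 tested genes (grey). The bar of SRF mouse 1 stands at 61.0% against 35.8% for all tested genes.

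The promoter elements did not divide the estimates. The 18 tested genes with an ISRE core had a median log2 fold change of 0.06 and the 14 with a window but no ISRE core had one of 0.04, with ranges of -0.10 to 0.45 and -0.27 to 0.32.

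The genes around the response were taken from set lists. None of 10 interferon genes (Ifnb1, Ifng, alpha, kappa, epsilon and lambda members) was listed in the tables, which hold only genes with at least 1 count in every library, so their level could not be compared. Of a further 39 interferon-stimulated genes, 36 were tested, with 0 at an unadjusted p under 0.05 and a median of 0.06. Of these, Pml, Lgals9 and Slfn8 were higher in SRF without overlap, with log2 fold changes of 0.22, 0.20 and 0.34, and 6.71% of all tested genes were. All 10 genes of the receptors and JAK-STAT proteins were tested, with 0 at an unadjusted p under 0.05 and a median of 0.13. The kinases Jak1 (158 to 169 CPM in control and 174 to 190 in SRF mice) and Jak2 (17.8 to 21.3 and 22.9 to 23.5) were higher in SRF without overlap, with log2 fold changes of 0.13 and 0.23, again beside 6.71% of all tested genes.

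The lists of sensing adaptors and of brakes held genes at an unadjusted p under 0.05, all of them higher in SRF, where 4.16% of all tested genes were. Of the 14 sensing adaptors on the list, Tlr9 did not pass the filter, and Mb21d1 was not found by that symbol and was not examined. Among the 12 tested there were 4 such genes. Tlr7, a receptor for single-stranded RNA in endosomes, had 3.35, 4.07 and 3.13 CPM in control and 6.54, 5.51 and 5.83 in SRF mice, a log2 fold change of 0.76 ± 0.25 (SE). Irf5 (0.71) and Irf8 (0.54) are transcription factors of myeloid cells, and Unc93b1 (0.55) carries endosomal receptors such as TLR7. Their adjusted p values by edgeR with Benjamini-Hochberg adjustment were 0.441 to 0.558, so none was called. In the same list Tlr3 was lower without overlap, at -0.22, as were 6.43% of all tested genes.

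Among 8 tested brakes on interferon and cytokine signaling there were 2. Socs1, an inhibitor of JAK kinases that interferon induces, had 5.434, 5.859 and 6.8004 CPM in control and 10.98, 12.36 and 8.178 in SRF mice. All 3 SRF mice were above the controls, with a log2 fold change of 0.80 ± 0.23 (SE), an unadjusted p of 0.011 and an adjusted p of 0.451 by edgeR with Benjamini-Hochberg adjustment. Socs3, induced mainly by cytokines of the IL-6 family, differed by 0.54. Ptpn6, a phosphatase of blood cells, was higher without overlap, at 0.26, as were 6.71% of all tested genes. Its unadjusted p was 0.114 by edgeR.

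Macrophage markers were higher in SRF beside these genes, while the interferon-stimulated sums overlapped. The 15 macrophage genes summed to 1532, 1984 and 1957 CPM in control and 3470, 4955 and 3641 CPM in SRF mice, which is 2.20 times as high on average. Most of that difference was Lyz2, the lysozyme gene of myeloid cells, and the other 14 genes summed to 789, 980 and 960 CPM in control and 1393, 1650 and 1303 in SRF mice, or 1.59 times as high. Csf1r, the receptor for a macrophage growth factor, differed by -0.03 on the log2 scale. Of the 15, 10 were higher at an unadjusted p under 0.05, with a median log2 fold change of 0.72, and 0 were called by edgeR and 6 by DESeq2 at the thresholds above. Markers of T and NK cells and of neutrophils were at low levels. The 9 T and NK cell markers summed to 18.02 to 19.86 CPM in control and 12.3 to 15.1 in SRF mice, lower in SRF without overlap. Of these 9, 2 passed the filter, and 1 was lower in SRF at an unadjusted p under 0.05 by edgeR, as were 2.85% of all tested genes. The 4 neutrophil markers summed to 4.32 to 7.72 CPM in control and 4.14 to 8.27 in SRF mice. The 5 plasmacytoid dendritic cell markers, Bst2 and Irf8 among them, summed to 351 to 397 CPM in control and 348 to 478 in SRF mice. Of the 4 tested, 1 (Irf8) was higher at an unadjusted p under 0.05 by edgeR and 0 were lower. Of all tested genes, 4.16% were higher and 2.85% lower. The part of macrophage number in the levels of Tlr7, Irf5, Irf8, Unc93b1, Socs1 and Socs3 was not tested.

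**Figure D5:**
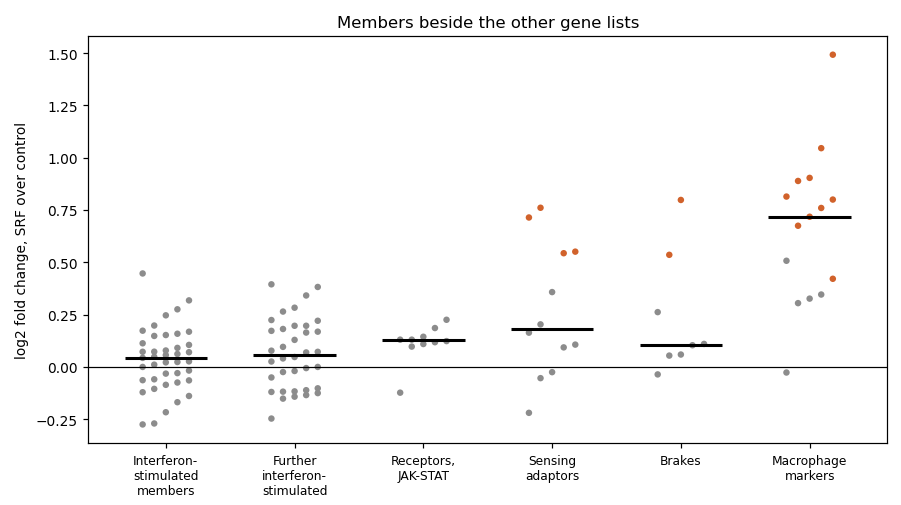
Log2 fold change of SRF over control for each tested gene (points) of the interferon-stimulated group and of 5 other lists, with the median as a bar and genes at an unadjusted p under 0.05 in orange. The interferon-stimulated lists hold no orange point and have medians of 0.04 and 0.06, while 10 of the 15 macrophage markers are orange around a median of 0.72.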

How the data were processed

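Total RNA of RPE-choroid from 3 control and 3 SRF mice was sequenced. The authors filtered the reads with FASTP, counted reads per gene with StringTie and deposited raw counts. The deposited FPKM values were scaled by the authors for transcript length and mapped reads. The aligner, genome build, annotation and strandedness are not given in the sources used here. By position, Irf7, Parp9 and Rtp4 each overlap a listed gene on the opposite strand. Since strand is unknown, reads from stretches held by both genes cannot be told apart. Of the 50-base stretches of Parp9 transcripts, 7.71% also occur in Dtx3l. Irf7 shared 0 such stretches with any gene, and those of Rtp4 were shared only with Gm45338. Irf9 and Igtp each overlap a listed gene on the same strand, where strand would not separate the reads. GENCODE M21 (GRCm38), which holds 15659 of the 15663 identifiers, gave the symbols and positions.

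Genes over 50 counts in 2 or more libraries were fitted with R 4.3.3 and edgeR 4.0.16 (quasi-likelihood test, TMM normalization, group as the only term, older form of the fit, Benjamini-Hochberg adjustment over 13454 genes, two-sided). A call needed an adjusted p under 0.05 and a change of 0.5 or more on the log2 scale. CPM values are TMM-normalized. Over all tested genes, log2 estimates had a median standard error of 0.19. DESeq2 1.42.0, limma 3.58.1, other normalizations and filters, a photoreceptor covariate, a replicate block and leaving out mice were the alternatives, and summing near-identical genes was added after the data were seen. The reported edgeR fit was first tested on simulated data, and the alternatives were not. Near-identical genes were found by comparing 50-base stretches of annotated transcripts.

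Members, lists and tests were chosen with earlier results of these data known. Values in every library were given for the 10 genes with the smallest unadjusted p, the genes without overlap, the most abundant gene and near-identical pairs. Bst2, Ifitm1, Irf7, Isg15, Oas1g, Socs1 and Tlr7 were added after their values were seen. Genes of the pathway lists were named where they passed an unadjusted p of 0.05 or did not overlap. Cell type markers were given as sums and counts apart from Lyz2, Csf1r and Rgr, named after their values were seen. Cmpk2, Rsad2 and others were given only by their estimates. Samples were grouped by their labels. Each library is 1 mouse, and a number shared between groups marks no shared animal.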

Additional observations from a re-analysis of the deposited data

How the results depend on the processing

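No interferon-stimulated gene was called under any of the 19 alternatives, and the lowest adjusted p of the group in any of them was 0.207 (Xaf1, 4 libraries). In 15 of the 19, 0 of the group were at an unadjusted p under 0.05. The exceptions were library size only (1, Ifit1), the 4 libraries with little rod RNA (3) and leaving out 1 mouse (0 to 2; Herc6 and Ddx58 without control mouse 3, Ifit1 without SRF mouse 2). The median log2 fold change of the group ran from -0.02 to 0.09. Of 774 values of single genes under an alternative, 80 changed sign, of which Ifitm1 had the largest estimate (-0.27), and 15 moved by 1 standard error or more. Over all tested genes the calls were 0 in the reported fit and 153 with DESeq2, 153 in the 4 libraries with little rod RNA, 2 with limma on log2(FPKM + 0.1) and 2 on log2(FPKM + 1). They were 1 with upper quartile normalization, library size only, no count filter, edgeR's own filter, the newer form of the edgeR fit or a photoreceptor covariate. Leaving out 1 mouse gave 0 to 5, with 5 without control mouse 1. The causes were not tested. With a replicate block on mouse numbers, 0 genes and 0 of the group were called. Deviations of same-numbered mice correlated at -0.47, 0.50 and -0.28. These values cannot show whether same-numbered libraries were handled together, since the libraries rich in rod RNA carry different numbers. With 3 mice a group, genes under 5 CPM such as Mx2 and Oas2 allow only wide bounds.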
